A study of Mus musculus with 74 samples.

Results

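The glycolysis and hypoxia genes are a set of 32 genes taken by name: every row of the 2 deposited expression tables whose symbol is, or lists, one of 32 fixed symbols. All 32 were found in both tables, among 23297 features with a symbol. The symbols were fixed by name, but they were chosen with earlier results of these data known. They cover 10 genes of upper glycolysis (Hk1, Hk2, Hk3, Gpi1, Pfkl, Pfkm, Pfkp, Aldoa, Aldoc, Tpi1), 6 of lower glycolysis (Gapdh, Pgk1, Pgam1, Eno1, Eno2, Pkm), 5 of pyruvate fate and flux control (Ldha, Ldhb, Pdk1, Pfkfb3, Pfkfb4), 4 of glucose and lactate transport (Slc2a1, Slc2a3, Slc16a1, Slc16a3), 3 of oxygen sensing (Hif1a, Egln1, Egln3) and 4 that respond to low oxygen (Bnip3, Vegfa, Ddit4, Ankrd37).

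Glycolysis splits glucose into pyruvate, which is either oxidised in mitochondria or reduced to lactate by lactate dehydrogenase. In low oxygen the prolyl hydroxylases encoded by the Egln genes slow down, the HIF-1 alpha protein encoded by Hif1a escapes degradation, and HIF binds short motifs ending in CGTG near many glycolytic genes. Myeloid cells that become activated often raise glycolysis, and several steps have isozymes that neurons, glia and myeloid cells use to different degrees: Aldoc, Pfkm, Eno2 and Ldhb are typical of brain tissue, and Hk3 of myeloid cells.

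The study holds 74 RNA-seq libraries of mice in 21 groups, from microglia of the spinal cord (MG) and from macrophages of the sciatic nerve (MP). Both cell types were collected with magnetic beads against CD11b, a surface protein that neutrophils and monocytes carry too, after a Percoll gradient against myelin. All mice were female and on the C57BL/6J background. The human SOD1-G93A transgene causes motor neuron disease, and the non-grafted G93A mice were taken pre-symptomatic (mean age 50.8 days), at onset (105 days), at early symptoms (152.6 days) and at end stage (169.4 days). MG came from 4, 5, 4 and 4 G93A mice at these stages, and MP gave 3, 3, 4 and 4 libraries, the pre-symptomatic ones from nerves pooled from 2 mice. Control MG came from mice with the unmutated human SOD1 (WT), aged 107.3 and 165.4 days, and from C57BL/6J mice without a transgene (B6), aged 109.8 and 165.6 days, 4 mice per group. Another 4 MP libraries are called WT in their description and G93A in their other labels, so they are "the libraries described as WT" here. Grafted mice all carried SOD1-G93A and received G93A or WT bone marrow at onset, with 3 libraries per cell type, marrow and stage (early symptoms or end stage) except 2 for MP with WT marrow at early symptoms. Age and stage rise together in G93A mice and cannot be told apart there.

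Values are FPKM, fragments scaled to transcript length and to the size of the library, so levels of different genes can be set side by side per length. The read depth behind them is unknown. Summed FPKM per library ranged from 483480 to 986659, and 7792 to 11843 genes with a symbol exceeded 1 FPKM. Changes are differences of mean log2(FPKM + 1), which understates the change of low genes, tested with limma over all genes with a mean of at least 1 FPKM. A gene is "called" when its p-value adjusted by Benjamini-Hochberg over all tested genes is under 0.05.

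The labelled cell types were checked against fixed marker genes before the members were read. P2ry12, a microglial receptor, lay between 88.4 and 2121 FPKM in the 33 non-grafted MG libraries. It lay between 0 and 116.2 FPKM in the 18 non-grafted MP libraries. The pre-symptomatic MG libraries also held oligodendrocyte RNA: 10 of 10 markers were found and summed to 27868 to 32437 FPKM. The sum was 822 to 31919 at onset, 1840 to 11260 at end stage and 6699 to 23435 in WT mice of the age of end stage. At onset, replicates 1 and 4 were high and replicates 2, 3 and 5 low. Neuron markers summed to 382 to 531 FPKM pre-symptomatically and to 15.5 to 142 at end stage, and astrocyte markers to 1531 to 2447 and 404 to 3469. Macrophage markers went the other way, from 426 to 1924 FPKM up to 3074 to 6204. In 4 MG libraries the neutrophil gene S100a8 exceeded 10000 FPKM (G93A onset replicate 5, G93A end stage replicate 4, WT replicates 1 and 2 of the age of end stage). The 18 MP libraries all held neutrophil RNA, with marker sums of 79560 to 216491 FPKM against macrophage marker sums of 2734 to 8444. Red cell markers summed to 5014 to 246684 FPKM there, so the label macrophage covers a mixed population. In such bulk samples fewer cells of a type and less RNA per cell cannot be told apart.

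The promoters of 6 genes are printed to show where the hypoxia motif lies in members on which the results turn: the lactate exporter Slc16a3, Ldha, the glucose importer Slc2a1, the oxygen sensors Egln1 and Egln3, and Vegfa, which went the opposite way to Slc16a3. Each run of 300 bases goes from 250 bases before to 50 bases after the RefSeq gene start (GRCm38.p6), 5′ to 3′ on the gene's strand, with every ACGTG or GCGTG on either strand in capitals. For Slc16a3 the RefSeq start lies 583 bases after the gene start in the deposited coordinates, so its window lies inside the gene as measured. For the other printed genes the distance is 0 or 1. CACGTG, the E-box of other factors, holds ACGTG on both strands and counts as 2 matches. The windows are chr11:120948817-120949116 on the plus strand for Slc16a3, chr7:46845554-46845853 plus for Ldha, chr4:119108495-119108794 plus for Slc2a1, chr12:54203825-54204124 minus for Egln3, chr8:124949205-124949504 minus for Egln1 and chr17:46032328-46032627 minus for Vegfa.
Slc16a3: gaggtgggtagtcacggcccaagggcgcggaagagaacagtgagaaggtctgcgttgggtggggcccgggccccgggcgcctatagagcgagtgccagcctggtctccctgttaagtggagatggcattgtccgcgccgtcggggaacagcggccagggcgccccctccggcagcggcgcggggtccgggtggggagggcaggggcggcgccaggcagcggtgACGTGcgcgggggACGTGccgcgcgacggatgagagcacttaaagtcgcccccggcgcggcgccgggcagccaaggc
Ldha: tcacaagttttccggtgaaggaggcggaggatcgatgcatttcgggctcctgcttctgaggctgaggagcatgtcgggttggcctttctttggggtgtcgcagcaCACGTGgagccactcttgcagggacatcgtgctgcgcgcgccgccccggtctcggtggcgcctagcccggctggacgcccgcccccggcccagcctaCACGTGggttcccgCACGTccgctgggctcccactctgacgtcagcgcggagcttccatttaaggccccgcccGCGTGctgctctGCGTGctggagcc
Slc2a1: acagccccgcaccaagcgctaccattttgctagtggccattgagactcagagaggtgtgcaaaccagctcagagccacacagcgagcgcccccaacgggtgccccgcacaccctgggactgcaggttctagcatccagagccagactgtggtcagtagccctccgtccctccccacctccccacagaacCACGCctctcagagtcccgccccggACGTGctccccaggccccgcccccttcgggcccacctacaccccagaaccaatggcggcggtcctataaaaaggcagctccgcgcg
Egln3: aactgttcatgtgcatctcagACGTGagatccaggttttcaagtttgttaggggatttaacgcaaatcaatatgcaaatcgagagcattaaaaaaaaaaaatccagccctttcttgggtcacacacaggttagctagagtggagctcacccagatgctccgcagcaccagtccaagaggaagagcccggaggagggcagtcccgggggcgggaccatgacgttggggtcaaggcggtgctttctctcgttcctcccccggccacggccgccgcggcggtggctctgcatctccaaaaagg
Egln1: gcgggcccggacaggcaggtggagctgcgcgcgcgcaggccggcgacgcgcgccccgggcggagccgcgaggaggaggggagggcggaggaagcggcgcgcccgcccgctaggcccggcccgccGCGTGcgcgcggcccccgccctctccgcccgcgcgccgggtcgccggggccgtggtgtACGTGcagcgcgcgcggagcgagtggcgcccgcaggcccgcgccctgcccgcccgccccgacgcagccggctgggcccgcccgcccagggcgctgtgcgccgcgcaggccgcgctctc
Vegfa: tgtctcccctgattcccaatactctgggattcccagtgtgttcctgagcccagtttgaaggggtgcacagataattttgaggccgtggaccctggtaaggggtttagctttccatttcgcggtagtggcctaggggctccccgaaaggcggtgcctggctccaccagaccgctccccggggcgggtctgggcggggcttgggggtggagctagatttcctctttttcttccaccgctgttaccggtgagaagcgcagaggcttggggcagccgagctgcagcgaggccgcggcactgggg
The Ldha window held 5 ACGTG and 2 GCGTG matches, that of Slc16a3 2 and 0, those of Slc2a1 and Egln1 1 of each, that of Egln3 1 and 0, and that of Vegfa none. Sequence outside the windows was not read, so a gene without a match here may have one elsewhere. Over the set, 31 of 32 genes had a window and Slc2a3 did not. ACGTG stood in 18 of 31 member windows (58.1%) against 19.6% of 32851 RefSeq windows of the same length, and GCGTG in 16 (51.6%) against 32.4%. Either motif was in 24 member windows (77.4%) and in 43.8% of all windows. A match of letters is a description and not a bound site, and genes both higher and lower at end stage had matches.

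The set as a whole was abundant in all groups, and the mean over its members hid opposite movements. The mean log2(FPKM + 1) over the 32 members was 5.44 ± 0.05 in pre-symptomatic G93A MG (SD, n = 4), 5.37 ± 0.32 at onset (n = 5), and 5.48 ± 0.15 and 5.32 ± 0.18 in the 4 early symptomatic and the 4 end stage libraries. WT MG stood at 5.63 ± 0.01 and 5.49 ± 0.08, and B6 MG at 5.59 ± 0.06 and 5.53 ± 0.07, at the ages of onset and of end stage. Non-grafted MP were lower, at 4.82 ± 0.08, 4.77 ± 0.20, 4.76 ± 0.17 and 4.90 ± 0.24 from pre-symptomatic to end stage and 4.87 ± 0.21 in the libraries described as WT. The same mean over all genes averaging at least 1 FPKM was 2.77 to 3.25 per library in non-grafted MP and 3.16 to 3.54 in non-grafted MG. A lower mean in non-grafted MP was thus not particular to the members. Grafted MG stood at 5.05 ± 0.11 and 4.85 ± 0.13 with G93A marrow, at early symptoms and end stage. With WT marrow they stood at 5.43 ± 0.43 and 4.99 ± 0.32. Grafted MP stood at 4.73 ± 0.19 and 4.99 ± 0.09 with G93A marrow and 4.79 ± 0.16 and 4.59 ± 0.33 with WT marrow. With G93A marrow at end stage MP were thus not lower than MG. Aldoc, an aldolase of astrocytes and neurons, had the highest median level of the members in MG, 5070 FPKM (165 to 9340 over 33 libraries), and Slc2a3 and Ankrd37 had the lowest, 1.72 and 1.94 FPKM. Of the 32 members, 29 were called in at least 1 of the 24 comparisons, as were 76.1% of the 12930 genes tested in any of them, and Gapdh, Pgk1 and the lactate transporter gene Slc16a1 in none.

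In MG of G93A mice, 19 of 32 members were called between the pre-symptomatic stage and end stage, 9 higher and 10 lower, in a comparison where 55.8% of 11750 tested genes were called (24.7% higher, 31.1% lower). The members' share was close to that background, and their median log2 change was 0.20 against 0.03 over all genes. Members moved in both directions: Slc16a3, Hk3, Egln3, Ldha, Hk2, Pdk1, Ankrd37, Pfkl and Aldoa rose, and Pfkm, Aldoc, Egln1, Vegfa, Pfkp, Eno2, Hk1, Ddit4, Ldhb and Eno1 fell. By role, upper glycolysis had 4 higher and 4 lower of 10 members, lower glycolysis 0 and 2 of 6, pyruvate fate 2 and 1 of 5, transport 1 and 0 of 4, oxygen sensing 1 and 1 of 3, and the hypoxia response 1 and 2 of 4.

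**Figure D1:**
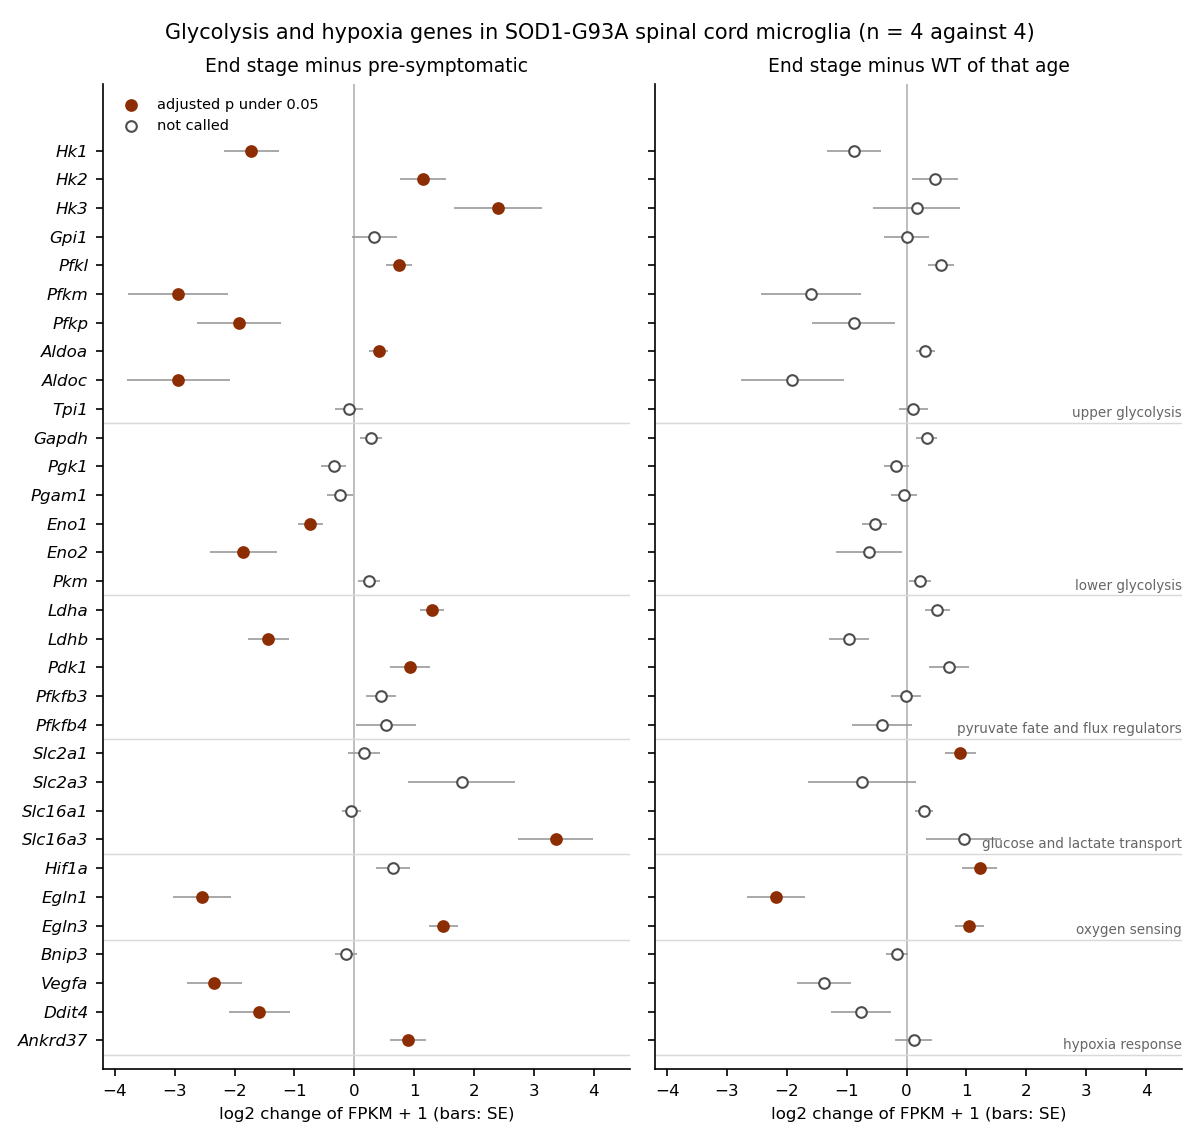
Change of each of the 32 members in spinal cord microglia, as the difference in mean log2(FPKM + 1) with its SE, for end stage against pre-symptomatic G93A (left) and end stage G93A against WT of that age (right), n = 4 against 4; filled points are called at an adjusted p under 0.05. Filled points lie on both sides of 0 at the left, 19 in all, and 4 are filled at the right.

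Slc16a3, which encodes the monocarboxylate transporter MCT4 that exports lactate, rose most. Its levels were 4.41, 2.15, 4.53 and 7.64 FPKM in the 4 pre-symptomatic libraries and 66.3, 44.9, 58.4 and 48.6 FPKM at end stage, which is a log2 change of 3.36 (SE 0.62, adjusted p = 0.000254) by limma. The groups did not overlap, and the lowest end stage library was above every pre-symptomatic one by more than their spread. Ldha, the lactate dehydrogenase subunit that favours lactate, was at 128.38, 113.71, 105.63 and 100.1 FPKM before symptoms and at 349.9, 236, 277 and 253 FPKM at end stage. The log2 change was 1.30 (SE 0.20, adjusted p = 4.96e-05). Again all 4 late libraries were above all 4 early ones. The heart-type subunit gene Ldhb fell, from 820.0 ± 84.4 FPKM (SD, n = 4) to 305 ± 56.8 FPKM (SD, n = 4). Its log2 change was -1.44 (SE 0.34, adjusted p = 0.00145).

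Hk3, the hexokinase of myeloid cells, rose from 4.37, 5.24, 11.9 and 14.8 FPKM to 51.1, 42.2, 40.5 and 55.7 FPKM. Its log2 change was 2.40 (SE 0.73, adjusted p = 0.00793) with limma. The rise in Hk3 went with a fall in Hk1, the ubiquitous hexokinase, from 45.99, 46.4, 37.6 and 36.1 FPKM to 6.04, 11.01, 9.74 and 28.9 FPKM (-1.72, SE 0.45, adjusted p = 0.00316). Neither hexokinase overlapped between the stages, though Hk1 in end stage replicate 4 came close to the pre-symptomatic range. Hk2, the inducible hexokinase, stayed low, at 0.94 to 2.09 FPKM and 2.75 to 5.64 FPKM, and rose with a log2 change of 1.15 (SE 0.39, adjusted p = 0.0151). Pfkl, the liver-type phosphofructokinase, rose from 54.96, 46.4, 44.1 and 47.99 FPKM to 108.21, 81.8, 113.01 and 43.7 FPKM (0.74, SE 0.22, adjusted p = 0.00645). End stage replicate 4, which was high in S100a8, lay below the whole pre-symptomatic group.

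Other isozymes of upper and lower glycolysis fell. Aldoc was at 6342, 6042, 4931 and 5861 FPKM before symptoms and at 231, 820.4, 757 and 2184 FPKM at end stage. The log2 change of Aldoc was -2.94 (SE 0.86, adjusted p = 0.00629) by limma. Pfkm, the muscle-type phosphofructokinase that brain also uses, went from 232, 241, 172 and 150.4 FPKM to 5.82, 29.2, 27.5 and 70.3 FPKM (-2.95, SE 0.83, adjusted p = 0.00494). In both genes all end stage libraries lay below all pre-symptomatic ones, but end stage values spread over about an order of magnitude. Pfkp, the platelet-type isozyme, fell with a log2 change of -1.93 (SE 0.70, adjusted p = 0.0219), and Eno2, the neuronal enolase, with -1.85 (SE 0.55, adjusted p = 0.00716). The log2 change of Eno1, the general enolase, was -0.73 (SE 0.21, adjusted p = 0.00474). A retrocopy of Eno1 has its own row. Reads of Eno1, Gapdh, Aldoa, Tpi1, Pgk1, Pgam1 and Ldha may be shared with near-identical copies, so their levels are uncertain.

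Among the oxygen sensors, the genes of 2 HIF prolyl hydroxylases went opposite ways. Egln1, the main HIF prolyl hydroxylase, was at 21.4, 19.3, 21.1 and 44.2 FPKM before symptoms and 2.56, 4.05, 3.12 and 4.26 FPKM at end stage. The log2 change of Egln1 was -2.54 (SE 0.49, adjusted p = 0.000324) with limma. Egln3, itself a HIF target, rose from 1.41, 1.61, 1.43 and 2.01 FPKM to 8.52, 6.16, 7.94 and 3.62 FPKM (1.48, SE 0.24, adjusted p = 6.76e-05). The stages did not overlap for either gene. Hif1a was higher by 0.64 (SE 0.29, adjusted p = 0.0591) and was not called.

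Of the hypoxia response genes, Vegfa, the angiogenic growth factor, fell from 14.2, 14.7, 15.9 and 9.73 FPKM to 1.64, 1.43, 1.16 and 3.72 FPKM. Its log2 change was -2.34 (SE 0.46, adjusted p = 0.000373) by limma. Ddit4, a stress-induced inhibitor of mTOR, fell with a log2 change of -1.59 (SE 0.51, adjusted p = 0.011). Ankrd37, a HIF target of unclear function, was low in both groups (1.07 to 1.4 and 1.32 to 4.88 FPKM) and rose with a log2 change of 0.90 (SE 0.31, adjusted p = 0.0157). Bnip3, a mitophagy receptor, did not pass (-0.14).

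Of the other members, 2 passed the test. Pdk1, the kinase that closes pyruvate dehydrogenase, rose by 0.93 (SE 0.33, adjusted p = 0.02) and Aldoa, the general aldolase, by 0.40 (SE 0.16, adjusted p = 0.0311) in the limma fit. For the others the log2 change was 0.33 (Gpi1, glucose phosphate isomerase), -0.09 (Tpi1, triose phosphate isomerase), 0.28 (Gapdh), -0.35 (Pgk1), -0.23 (Pgam1) and 0.24 (Pkm, pyruvate kinase), none called. The same held for the glucose importer gene Slc2a1 (0.16), for Slc16a1 (-0.05) and for the fructose bisphosphate regulators Pfkfb3 and Pfkfb4 (0.45 and 0.53). Slc2a3, a high-affinity glucose importer, differed by 1.79 (SE 0.90, adjusted p = 0.089). Over all 33 MG libraries it was at 76.03, 41.47, 49.02 and 27.52 FPKM in the 4 that were high in S100a8 and at 0.21 to 4.23 FPKM in the others.

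At early symptoms the same pre-symptomatic libraries served as the reference. There 13 members were called, 9 higher and 4 lower, with a background of 35.1% (19.1% higher, 16% lower). The median log2 change was 0.15 over the members and 0.05 over all genes. Slc16a3 (3.08, SE 0.62, adjusted p = 0.00115), Hk3 (1.84, SE 0.73, adjusted p = 0.0498), Egln3 (1.32, SE 0.24, adjusted p = 0.000486) and Ldha (1.18, SE 0.20, adjusted p = 0.000268) rose most among the members that reached 5 FPKM, by limma. Their levels at early symptoms were 40.3, 71.4, 42.96 and 30.9 FPKM for Slc16a3 and 237, 324, 237 and 227 FPKM for Ldha. Hk3 was at 32.5, 49.3, 32.9 and 18.7 FPKM and Egln3 at 5.08, 7.51, 4.29 and 5.47 FPKM. Each of these values was above all pre-symptomatic values of its gene. Hk2, Pdk1, Ankrd37, Pfkl and Aldoa also rose, by 1.22, 0.95, 0.93, 0.85 and 0.42. Vegfa (-1.73, SE 0.46, adjusted p = 0.00763), Egln1 (-1.60, SE 0.49, adjusted p = 0.0163), Hk1 (-1.21, SE 0.45, adjusted p = 0.0406) and Eno1 (-0.58, SE 0.21, adjusted p = 0.0329) fell. Vegfa was at 2.65, 2.88, 4.51 and 3.53 FPKM, Hk1 at 22.5, 8.33, 20.04 and 23.3 FPKM and Eno1 at 356, 290.0, 349 and 359 FPKM, all below the pre-symptomatic range. Egln1 was at 28.3, 2.05, 5.76 and 7.88 FPKM, so that replicate 1 lay within the pre-symptomatic range. Without early replicate 2 the change of Egln1 was -1.10 and not called. The count of called members fell to 5 without early replicate 2 (13.2% of all genes), 7 without early replicate 3 (28.3%), 7 without pre-symptomatic replicate 1 (19.4%) and 6 without pre-symptomatic replicate 2 (17.9%). In early replicate 2 oligodendrocyte markers summed to 1824 FPKM, against 10704 to 13409 in the rest of its group. The call of Hk3 was lost on leaving out any 1 of 6 of the 8 libraries, that of Hk1 any 1 of 5 and that of Eno1 any 1 of 4.

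At onset 8 members were called against the pre-symptomatic stage, 3 higher and 5 lower. The background was 25.5% (10.3% higher, 15.1% lower), and the medians were 0.0 and 0.14. Slc16a3 (2.56, SE 0.59, adjusted p = 0.0392), Egln3 (0.87, SE 0.23, adjusted p = 0.0392) and Ldha (0.81, SE 0.19, adjusted p = 0.0392) were higher. Aldoc (-2.40, SE 0.82, adjusted p = 0.0406), Pfkm (-2.24, SE 0.79, adjusted p = 0.0428) and Eno2 (-1.64, SE 0.53, adjusted p = 0.0392) were lower in the limma fit. So were Ddit4 (-1.37, SE 0.48, adjusted p = 0.0433) and Vegfa (-1.23, SE 0.43, adjusted p = 0.043). The 5 mice split. Slc16a3 was 7.13, 74.1, 53.8, 10.1 and 81.8 FPKM in replicates 1 to 5. Aldoc was 6891, 354, 165, 7144 and 545 FPKM and Egln1 28.9, 9.23, 11.4, 32.4 and 13.9 FPKM. Replicates 1 and 4, those high in oligodendrocyte markers, lay in or near the pre-symptomatic range in each of these genes. Pfkm was 232, 13.1, 5.89, 246 and 20.9 FPKM and Eno2 28.5, 4.73, 1.29, 24.9 and 2.8 FPKM, with the same replicates high. Ddit4 was 8.13, 1.58, 0.93, 7.44 and 1.55 FPKM and Vegfa 14.8, 2.92, 0.49, 12.3 and 6.23 FPKM. Ldha (135.4, 262, 190.1, 136.74 and 314 FPKM) and Egln3 (2.17, 6.98, 3.91, 2.38 and 4.75 FPKM) were above every pre-symptomatic library in all 5 mice. No member was called without any 1 of the pre-symptomatic replicates 1 to 3 or of the onset replicates 2, 3 and 5. There were 18 called without onset replicate 1 (59.2% of all genes) and 17 without replicate 4 (55.1%), so the members' count rose with that of all genes.

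**Figure D2:**
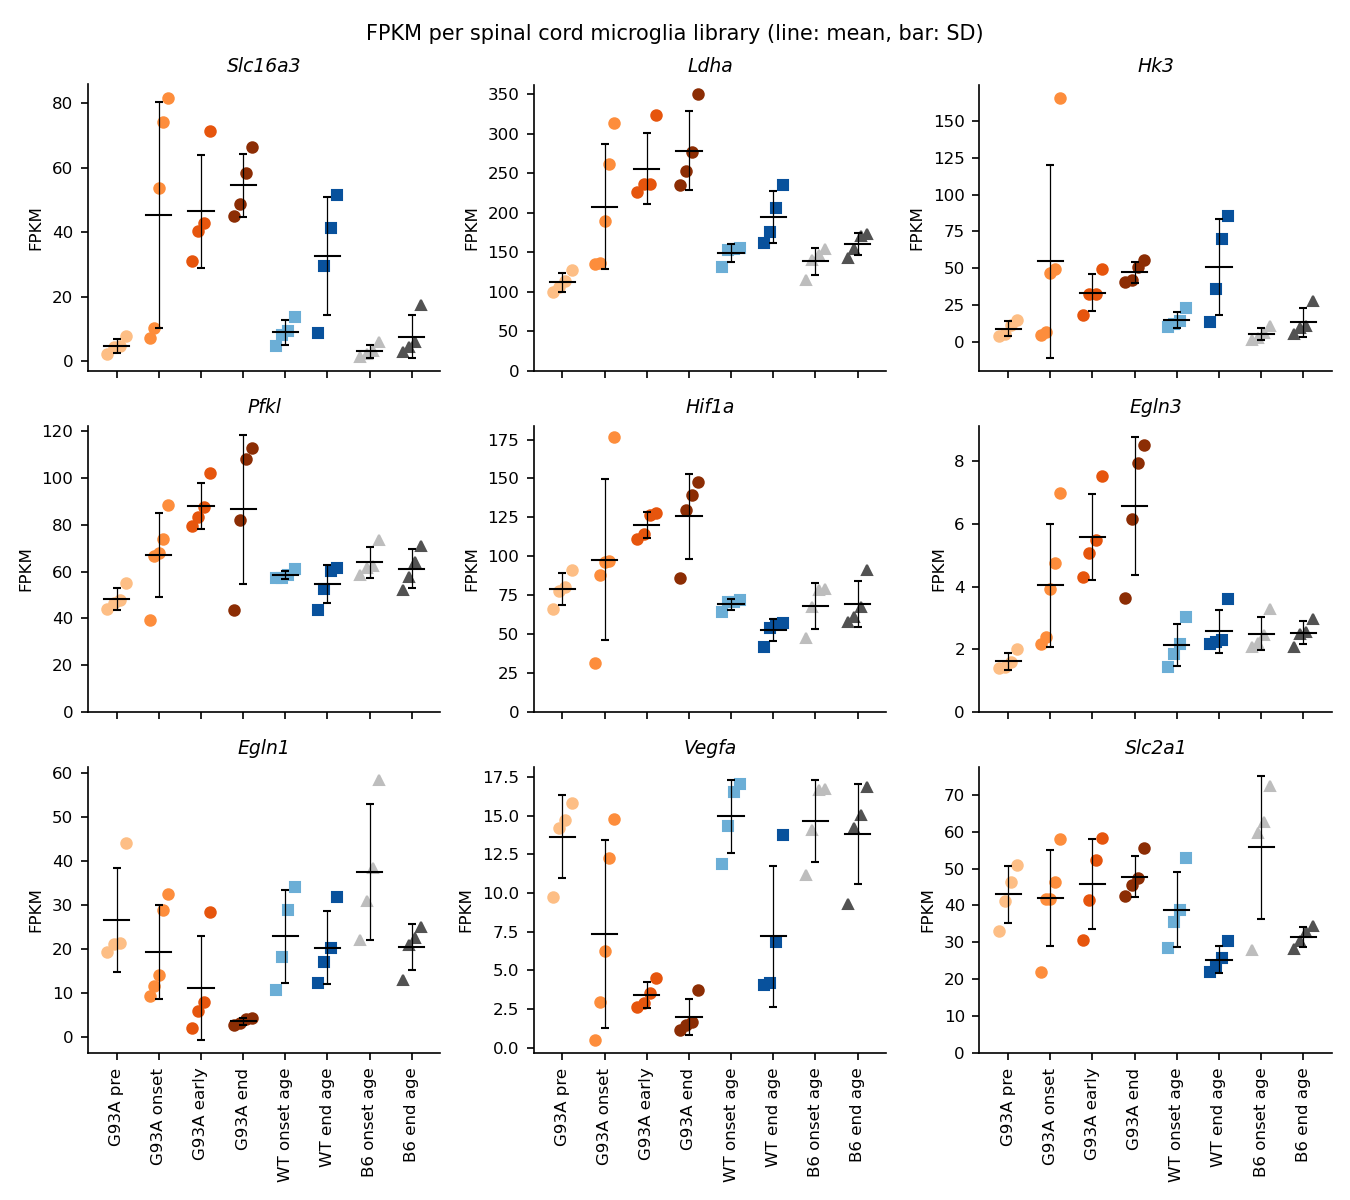
FPKM of 9 members in each of the 33 non-grafted MG libraries, by genotype and stage or age; points are libraries, lines the group mean and SD. Slc16a3 and Ldha are higher at early symptoms and end stage than before symptoms, Egln1 and Vegfa are lower, and the onset group is split.

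Oligodendrocyte and neutrophil RNA moved with these changes, so the MG fit was repeated with the mean log2(FPKM + 1) of both marker lists as terms. For end stage against pre-symptomatic, 11 members were then called, 8 higher and 3 lower, with 17.1% of all genes called. Of the 19 called without the terms, 7 were kept. Slc16a3 (1.34, SE 0.37, adjusted p = 0.0138), Egln3 (1.02, SE 0.20, adjusted p = 0.000822), Pfkl (0.94, SE 0.18, adjusted p = 0.000576) and Ldha (0.79, SE 0.17, adjusted p = 0.00261) were higher in this limma fit. Aldoa (0.61, SE 0.16, adjusted p = 0.00888) was higher too, and Egln1 (-1.66, SE 0.47, adjusted p = 0.0162) and Vegfa (-1.18, SE 0.35, adjusted p = 0.0213) were lower. Hif1a (0.97, SE 0.26, adjusted p = 0.0108), Gapdh (0.59, SE 0.19, adjusted p = 0.0298), Tpi1 (0.54, SE 0.19, adjusted p = 0.0493) and Pfkfb4 (-0.99, SE 0.29, adjusted p = 0.0192) were called with the terms and not in the main fit. Leaving out the libraries high in S100a8, without the terms, limma also called Hif1a (0.81, SE 0.20, adjusted p = 0.00194) but not Gapdh, Tpi1 or Pfkfb4. With the terms, the changes of Aldoc (-0.14, SE 0.18, adjusted p = 0.635), Pfkm (-0.23, SE 0.20, adjusted p = 0.454) and Hk3 (0.06, SE 0.42, adjusted p = 0.942) came near 0 and were not called. Oligodendrocyte sums did not overlap between these stages (27868 to 32437 and 1840 to 11260 FPKM), nor did neutrophil sums (42.1 to 422 and 557 to 52492 FPKM). This fit therefore cannot tell a change with stage apart from the amount of oligodendrocyte or neutrophil RNA. At early symptoms 9 members were called with the terms, 8 higher and 1 lower, with 18% of all genes. They included 6 of the former 13 (Slc16a3, Egln3, Ldha, Pfkl, Aldoa and Vegfa). Oligodendrocyte sums at early symptoms (1824 to 13409 FPKM) did not overlap the pre-symptomatic ones either, so the same limit holds for oligodendrocyte RNA. At onset none was called by limma (0.00851% of all genes, 6 members under 0.05 unadjusted), with changes of 0.15 for Aldoc and 0.21 for Pfkm.

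**Figure D3:**
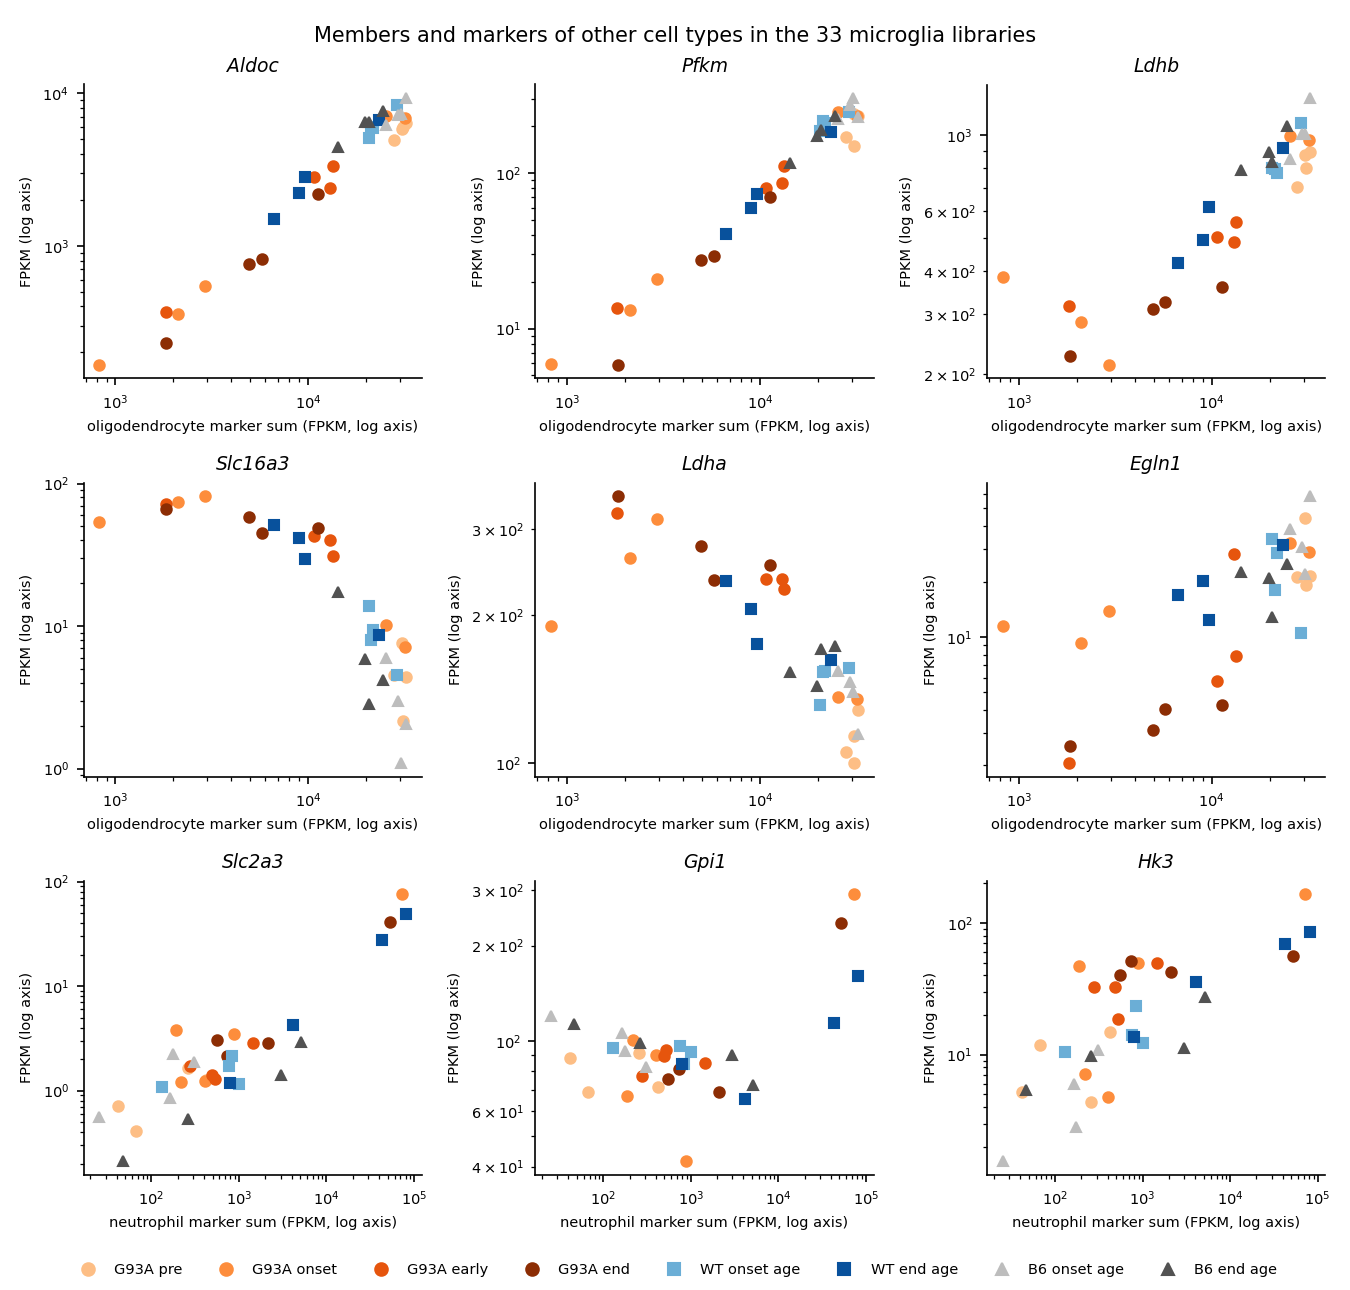
FPKM of 6 members against the summed FPKM of 10 oligodendrocyte markers, and of 3 members against that of 13 neutrophil markers, in the 33 non-grafted MG libraries, both axes logarithmic; points are libraries, coloured by group. Aldoc, Pfkm and Ldhb are high where the oligodendrocyte sum is high, and Slc2a3 and Gpi1 are high in the libraries with the highest neutrophil sums.

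The shares of isozymes within their families are given as a description of the same libraries, with no test. Among lactate dehydrogenase FPKM, Ldha took 12.1% ± 1.21 in pre-symptomatic G93A MG and 47.8% ± 9.02 at end stage (SD, n = 4 each), with 25.6% ± 8.93 in WT of that age (n = 4). Hk3 took 17.4% ± 9.68 of hexokinase FPKM before symptoms, 72.7% ± 7.42 at end stage and 60.3% ± 23.7 in WT. Pfkl went from 14.4% ± 2.56 to 60.5% ± 26.1 of phosphofructokinase FPKM, and Aldoa from 6.77% ± 0.31 to 43.9% ± 24.6 of aldolase FPKM. Of the monocarboxylate transporter pair, Slc16a3 held 31.6% ± 13 and then 84.9% ± 3.44, with 75.4% ± 19.4 in WT. Eno1 was the main enolase throughout, at 95.3% ± 0.87 and 97.8% ± 1.19. In MP, Ldha (88.5% ± 5.44 pre-symptomatic, 89.3% ± 11.6 at end stage) and Hk3 (81% ± 8.65 and 84.2% ± 8.19) were the main isozymes at both stages. With the marker terms above, the changes of Ldhb (-0.34, adjusted p = 0.225), Pfkm, Aldoc and Hk3 from pre-symptomatic to end stage MG were not called by limma. Those of Ldha, Pfkl and Aldoa were.

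**Figure D4:**
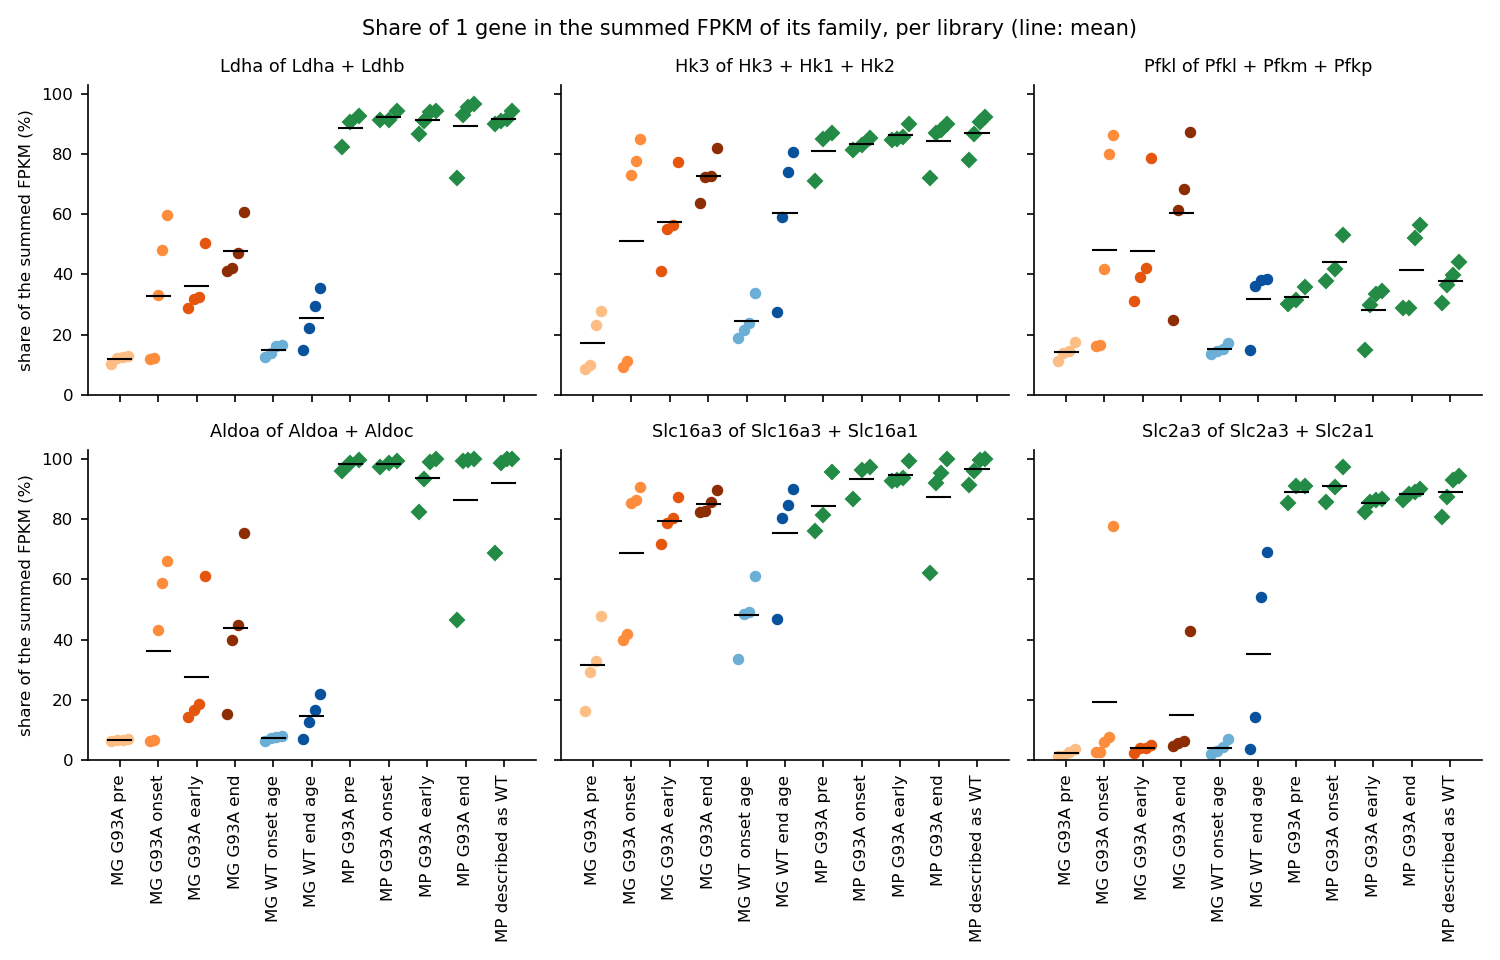
Share of 6 genes in the summed FPKM of their isozyme family, in percent, per library and group, for MG and MP; points are libraries. The mean shares of Ldha, Hk3 and Aldoa in end stage MG lie between those of pre-symptomatic MG and of MP.

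Against WT mice of the same age, end stage G93A MG differed in few members, and 3 of those 4 belong to oxygen sensing. Of 32 members 4 were called, 3 higher and 1 lower, while 6.92% of all genes were called (2.77% higher, 4.14% lower). The medians were 0.0 and -0.13. Hif1a was at 139, 129.6, 148 and 86.3 FPKM in G93A and 42.1, 57.5, 54.3 and 56.6 FPKM in WT, a log2 difference of 1.22 (SE 0.29, adjusted p = 0.0103) by limma. Egln3 was at 3.59, 2.3, 2.18 and 2.22 FPKM in WT, below its 4 end stage values, with a difference of 1.05 (SE 0.24, adjusted p = 0.00791). Egln1 was at 16.9, 20.1, 31.7 and 12.3 FPKM in WT, above all 4 end stage values, with a difference of -2.18 (SE 0.49, adjusted p = 0.00683). Slc2a1, the basal glucose importer GLUT1, was at 42.5, 47.4, 45.6 and 55.6 FPKM in G93A and 21.99, 23.2, 30.3 and 25.7 FPKM in WT (0.89, SE 0.26, adjusted p = 0.0347). In none of these 4 genes did the groups overlap, but this was not particular to them. Of the 32 members 8 did not overlap, among them Eno1, Ldha, Ldhb and Vegfa, which were not called. The share of all genes without overlap is given for no comparison here. With the 2 marker terms the fit called 17.6% of all genes and 6 members. The 4 genes kept their call, at 0.92 (SE 0.23, adjusted p = 0.00655) for Hif1a, 0.69 (SE 0.18, adjusted p = 0.00745) for Egln3, -1.61 (SE 0.42, adjusted p = 0.00879) for Egln1 and 0.78 (SE 0.26, adjusted p = 0.0372) for Slc2a1. Ldhb (-0.64, SE 0.17, adjusted p = 0.00853) and Aldoc (-0.50, SE 0.16, adjusted p = 0.0269) were called lower in this limma fit as well.

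The call of Slc2a1 depended on single libraries. It was lost when any 1 of the 8 libraries was left out (log2 difference 0.82 to 0.98), without the libraries high in S100a8 (0.67), and against B6 in place of WT (0.59). Against B6 of that age, 18 members were called by limma, 7 higher and 11 lower, with 46.2% of all genes. Hif1a, Egln1 and Egln3 were among them, at 0.84, -2.22 and 1.05 with adjusted p of 0.0203, 0.00129 and 0.00165. So were Slc16a3 (2.96), Hk3 (1.95), Ldha (0.78), Vegfa (-2.35) and Aldoc (-3.04). Egln3 was not called when only the 2 groups entered the fit (adjusted p = 0.0595). Neither Slc16a3 (0.95, SE 0.62, adjusted p = 0.355), Ldha (0.52, SE 0.20, adjusted p = 0.116) nor Hk3 (0.17, SE 0.73, adjusted p = 0.914) was called against WT. In WT mice Slc16a3 was 51.4, 41.2, 8.63 and 29.4 FPKM, and replicates 1 and 2 were those high in S100a8. Vegfa (-1.38, SE 0.46, adjusted p = 0.0626), Ldhb (-0.96, SE 0.34, adjusted p = 0.0796) and Pfkl (0.58, SE 0.22, adjusted p = 0.1) also missed the threshold. Without end stage replicate 4 alone, 7 members and 9.39% of all genes were called. Without all libraries high in S100a8, 8 members were called, with 14.3% of all genes: Pfkl, Ldha, Hif1a and Egln3 higher by 0.80, 0.75, 1.31 and 1.41, and Ldhb, Egln1, Vegfa and Ddit4 at -1.40, -2.31, -2.16 and -1.98.

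No member was called by limma at onset against WT of that age, where 4.16% of all genes were called (1.01% higher, 3.15% lower) and 17 of 32 members had an unadjusted p under 0.05, as did 34.7% of all genes (medians -0.07 and 0.04). Gapdh (-0.55, SE 0.17, adjusted p = 0.0503), the glyceraldehyde phosphate dehydrogenase, and Ddit4 (-1.56, SE 0.48, adjusted p = 0.0503) had the smallest p. Gapdh was 126.87, 121.66, 68.8, 131.12 and 101.76 FPKM at onset and 162, 139, 168 and 161 FPKM in WT. Ddit4 was 10.6, 6.57, 10.4 and 17.7 FPKM in WT, and its onset replicates 1 and 4 were within the WT range. Without onset replicate 1 there were 18 calls (42% of all genes) and without replicate 4 there were 16 (36.1%). With B6 of that age in place of WT, 19 members were called, 6 higher and 13 lower, with 55.1% of all genes.

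Among controls no member was called. Between WT and B6 at the age of end stage 0% of all genes and no member were called by limma, with 7 members and 20.5% of all genes at an unadjusted p under 0.05 (medians -0.24 over the members and 0.07 over all genes). Slc16a3 was 51.4, 41.2, 8.63 and 29.4 FPKM in WT and 2.85, 4.19, 5.85 and 17.3 FPKM in B6 (2.00, SE 0.62, adjusted p = 0.239). Slc2a3 was 49.02, 27.5, 1.17 and 4.23 and 0.53, 0.21, 1.4 and 2.94 FPKM (2.46, SE 0.90, adjusted p = 0.239). Both genes were highest in the WT libraries high in S100a8. At the age of onset the background was again 0%, with 3 members and 6.17% of all genes under 0.05 unadjusted. They were led by Slc16a3 (7.94, 13.7, 9.34 and 4.53 FPKM in WT, 2.05, 1.09, 5.92 and 2.98 FPKM in B6, 1.36, SE 0.62, adjusted p = 0.759) and Hk2 (2.53, 5.13, 2.66 and 0.98 and 0.6, 0.68, 1.87 and 0.99 FPKM, 0.84, SE 0.39, adjusted p = 0.759). In WT mice between the 2 ages 0.136% of all genes (0.0851% higher, 0.0511% lower) and no member were called (7 members and 26.6% of all genes under 0.05 unadjusted). Gapdh (162, 139, 168 and 161 FPKM at the younger and 102.92, 101.91, 139.5 and 103.12 FPKM at the older age, -0.50, SE 0.18, adjusted p = 0.143) and Slc16a3 (1.61, SE 0.62, adjusted p = 0.154) led. Without WT replicate 3 of the older group 5 members and 11.8% of all genes were called. The change from onset to end stage was tested between G93A and WT: 0.00851% of all genes and no member were called, with 6 members and 7.0% of all genes under 0.05 unadjusted. Gapdh had the smallest p (0.88, SE 0.25, adjusted p = 0.229), then Egln1 (-1.90, SE 0.67, adjusted p = 0.475).

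Other genes of the pathways were read as 4 lists, in the same fit that called 55.8% of all genes (24.7% higher, 31.1% lower). Of 37 other glycolysis and pyruvate genes 26 were tested, and in end stage MG 8 of them were called higher and 11 lower against the pre-symptomatic stage (median log2 change -0.55). They included Slc2a6, a lysosomal hexose transporter (4.01, SE 0.59, adjusted p = 2.6e-05), Slc16a7, a pyruvate and lactate importer (1.64, SE 0.52, adjusted p = 0.00987), Pdk2 (-2.15, SE 0.62, adjusted p = 0.00578) and Pgm2 (-1.96, SE 0.49, adjusted p = 0.00231), by limma. Of the pentose phosphate genes, which branch from glucose 6-phosphate to make NADPH, 3 of 6 tested were higher and none lower (median 0.93). They were Pgd (1.78, SE 0.48, adjusted p = 0.00399), G6pdx (1.15, SE 0.47, adjusted p = 0.0397) and Pgls (1.00, SE 0.23, adjusted p = 0.00116). Of 12 tested genes of the HIF machinery, 0 were higher and 6 lower (median -0.42). The 6 lower genes included Arnt2, a HIF partner of neurons (-2.46, SE 0.64, adjusted p = 0.00297), Epas1, which encodes HIF-2 alpha (-1.15, SE 0.35, adjusted p = 0.00727), the ubiquitin ligase subunit gene Vhl (-1.07, SE 0.19, adjusted p = 0.000174) and Rbx1 (-0.58, SE 0.18, adjusted p = 0.00842). Of 19 tested other HIF target genes 4 were higher and 7 lower (median -0.20). Plod2, Ndrg1, Rora and Higd1a had the largest changes, at -1.99, -1.71, -1.57 and -1.57. The 4 called higher, named after their values were seen, were Ero1l, Cited2, Bhlhe40 and Hilpda, at 1.31, 1.17, 0.81 and 0.58. The shares called in either direction among the pentose phosphate, HIF machinery and other HIF target genes were near that of all genes. Against WT at end stage, where 6.92% of all genes were called, 1 of 12 HIF machinery genes, 1 of 19 other HIF targets and 4 of 26 glycolysis and pyruvate genes were. Vhl (-0.70, SE 0.19, adjusted p = 0.025) was again lower and Bhlhe40, a HIF-induced repressor, higher (1.34, SE 0.34, adjusted p = 0.0157). Of the glycolysis and pyruvate list Tigar, a fructose bisphosphatase, was higher (1.16, SE 0.18, adjusted p = 0.000238) and Slc2a5 (-2.45, SE 0.65, adjusted p = 0.0208), Mpc2 (-0.98, SE 0.25, adjusted p = 0.0157) and Pdhb (-0.57, SE 0.17, adjusted p = 0.0394) lower. No pentose phosphate gene was called against WT.

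In sciatic nerve MP of G93A mice no member was called by limma at any stage against the pre-symptomatic one. Of 31 tested members (Eno2 was below the filter), 0 had an unadjusted p under 0.05 at end stage, 5 at early symptoms and 0 at onset, where 0%, 0% and 0.00975% of 10260 tested genes were called. Over all genes 5.96%, 5.04% and 5.09% had such a p. At end stage Pfkp, with 35.4, 50.1 and 55.4 FPKM before symptoms and 25.5, 34.8, 24.1 and 22.95 FPKM later (-0.78, SE 0.37, adjusted p = 0.82), had the smallest p. Next came Egln1, with 9.07, 11.9 and 12.2 FPKM and then 8.46, 9.38, 6.34 and 4.84 FPKM (-0.57, SE 0.31, adjusted p = 0.834). Pfkp did not overlap and Egln1 did. At early symptoms Ddit4, with 1.15, 0.91 and 0 FPKM before symptoms and 3.55, 4.78, 5.66 and 1.24 FPKM then (1.48, SE 0.56, adjusted p = 0.91), and Pfkfb4, a testis-type phosphofructokinase regulator (-0.90, SE 0.37, adjusted p = 0.91), led. At onset Bnip3, with 14.9, 19.4 and 13.1 FPKM before symptoms and 22.8, 25.3 and 22.1 FPKM then (0.55, SE 0.34, adjusted p = 0.986), and again Pfkfb4 (-0.62, SE 0.39, adjusted p = 0.986) led. Pfkfb4 was at 66.4, 77.3 and 74.6 FPKM before symptoms, 29.9, 63.2 and 54.8 FPKM at onset and 46.5, 42.4, 27.1 and 40.8 FPKM at early symptoms. Neither Ddit4, Bnip3 nor Pfkfb4 overlapped at these stages, but no difference passed over all genes. Slc16a3 in MP was at 69.8, 61.1 and 75.5 FPKM before symptoms, 110.84, 75.4 and 102.37 FPKM at onset, 109.9, 123.91, 113.5 and 93.9 FPKM at early symptoms and 148, 108.89, 87.5 and 65.1 FPKM at end stage. Ldha stood at 268 to 359 FPKM before symptoms and 323 to 370.2 FPKM at end stage. End stage MP against the libraries described as WT gave no call (0% of all genes, with 2 members and 5.89% of all genes under 0.05 unadjusted). Egln1 was at 8.46, 9.38, 6.34 and 4.84 against 16.9, 9.93, 12.3 and 15.2 FPKM (-0.83, SE 0.29, adjusted p = 0.666), with no overlap. Pfkfb3 was at 8.54, 5.1, 4.44 and 7.75 against 14.4, 8.48, 7.13 and 19.4 FPKM (-0.78, SE 0.35, adjusted p = 0.83), with overlap.

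The level of most members differed between MP and MG libraries. Neutrophil markers differed too, and Slc2a3 and Gpi1 were also high in G93A MG onset replicate 5 and end stage replicate 4, both high in S100a8, as Hk3 was in the former. The markers summed to 79560 to 188323 FPKM in pre-symptomatic MP and 42.1 to 422 in MG, and to 115512 to 216491 and 557 to 52492 FPKM at end stage. Their part in the differences was not tested. Before symptoms 23 of 32 members were called between MP and MG, 8 higher and 15 lower in MP, with 54.6% of 11773 genes called (23.6% higher, 31% lower). The medians were -0.48 and -0.17. Slc2a3 (103.69, 169.7 and 188 FPKM in MP against 1.64, 0.71, 0.41 and 1.27 FPKM in MG) differed by 6.27 (SE 0.80, adjusted p = 4.03e-08) with limma. Hk3 (199, 108.23 and 163 FPKM in MP) differed by 4.07 (SE 0.67, adjusted p = 2.38e-06). Slc16a3 differed by 3.70 (SE 0.57, adjusted p = 8.35e-07) and Pfkfb4, at 72.7 ± 5.69 FPKM (SD, n = 3) in MP and 9.07 ± 4.73 FPKM (SD, n = 4) in MG, by 2.98 (SE 0.49, adjusted p = 2.19e-06). These 4 genes were higher in every MP library of that stage than in every MG library. Gpi1, Egln3, Ldha and Pkm were higher as well, by 2.10, 1.45, 1.43 and 0.82. Lower in MP were Aldoc (1.51, 4.55 and 19.98 FPKM, -9.76, SE 1.5, adjusted p = 7.78e-07) and Pfkm (1.78, 3.6 and 0.03 FPKM, -6.38, SE 0.90, adjusted p = 2.08e-07). Also lower were Ldhb (29.2, 57.7 and 29.4 FPKM, -4.44, SE 0.48, adjusted p = 2.04e-09) and Eno2 (0, 0 and 4.73 FPKM, -3.85, SE 0.64, adjusted p = 2.68e-06). In MG, Aldoc, Pfkm and Ldhb were high where oligodendrocyte marker sums were high. The other lower members were Ddit4, Pdk1, Hif1a, Bnip3, Vegfa, Slc2a1, Egln1, Pfkfb3, Pfkl, Tpi1 and Pgam1, from -2.67 to -0.59. Scaling the libraries by median ratios moved the median of all genes by -0.42 and made the split 6 higher and 18 lower, with no called member changing sign.

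At end stage 21 members were called between MP and MG, 8 higher and 13 lower, with 39.3% of all genes called (13% higher, 26.2% lower). The medians were -0.23 and -0.37. Slc2a3 (4.15, SE 0.74, adjusted p = 3.09e-05), Gpi1 (2.21, SE 0.34, adjusted p = 3.6e-06), Pfkfb4 (1.92, SE 0.45, adjusted p = 0.000856) and Hk3 (1.72, SE 0.62, adjusted p = 0.0257) led the higher ones in the limma fit. Vegfa, Hk1, Pkm and Eno1 followed at 1.24, 1.06, 0.65 and 0.53. Slc2a3 was 156, 129.27, 126.25 and 78.6 FPKM in MP and 2.14, 2.85, 3.05 and 41.5 FPKM in MG. Gpi1 was 551, 509, 445 and 382 and 81.3, 69.1, 75.7 and 236 FPKM, and Hk3 was 231, 188, 178 and 77.5 FPKM in MP. Pfkfb4 was 61.4, 60.6, 63.7 and 26.4 FPKM in MP and 9.52, 10.3, 11.5 and 21.6 FPKM in MG. Each of these 4 genes was higher in all 4 MP libraries than in all 4 MG libraries. The call of Hk3 was lost without MG replicate 2 or 3 or MP replicate 1, 2 or 3. Aldoc (0.02, 517, 2.94 and 0.92 FPKM in MP, -6.56, SE 1.39, adjusted p = 0.000266) and Ldhb (12.3, 124.81, 28.6 and 16.3 FPKM, -3.31, SE 0.44, adjusted p = 3.93e-07) were lower. So were Eno2 (0, 2.64, 0 and 0 FPKM, -2.37, SE 0.59, adjusted p = 0.00152) and Hif1a (42.1, 10.6, 29.3 and 27.5 FPKM, -2.28, SE 0.34, adjusted p = 2.46e-06). MP replicate 2 stood apart in Aldoc, Ldhb and Eno2. Pdk1, Pfkm, Pfkfb3, Pfkl, Slc2a1, Hk2, Bnip3, Tpi1 and Aldoa were lower by the fit too, from -2.20 to -0.48. Ldha (0.34, SE 0.20, adjusted p = 0.186) and Slc16a3 (0.85, SE 0.53, adjusted p = 0.202) were not called at this stage. Median-ratio scaling moved the median of all genes by -0.03 and made the split 5 higher and 11 lower, with no called member changing sign. Of the 6 tested pentose phosphate genes, 5 were called higher and 0 lower in MP before symptoms, and the counts at end stage were the same (medians 2.33 and 1.58), where 23.6% and 13% of all genes were called higher. Taldo1, G6pdx, Pgd and Tkt led before symptoms at 3.26, 2.94, 2.44 and 2.22.

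The change from the pre-symptomatic stage to end stage was compared directly between the cell types. It differed for 7 of 32 members, 4 with a higher and 3 with a lower change in MP. The background was 19.5% (9.50% higher, 9.96% lower), and the medians were 0.09 and -0.18. The change was lower in MP for Slc16a3 (-2.85, SE 0.78, adjusted p = 0.0119), Egln3 (-2.21, SE 0.78, adjusted p = 0.0406) and Ldha (-1.09, SE 0.30, adjusted p = 0.0122), which rose in MG, by limma. It was higher in MP for Pfkm (4.34, SE 1.23, adjusted p = 0.0142), Vegfa (2.62, SE 0.67, adjusted p = 0.00891), Ddit4 (2.42, SE 0.76, adjusted p = 0.0233) and Egln1 (1.97, SE 0.63, adjusted p = 0.0246), which fell in MG. In MP, Vegfa was 8.93, 1.64 and 5.51 FPKM before symptoms and 7.3, 5.47, 6.01 and 4.37 FPKM at end stage. Egln3 was 3.6, 9.59 and 6.33 and 0.19, 3.92, 12.9 and 3.14 FPKM, and Ddit4 1.15, 0.91 and 0 and 3.79, 3.35, 0.69 and 0.89 FPKM, with overlapping stages in all 3 genes. Pfkm in MP was 1.78, 3.6 and 0.03 and then 6.23, 25.01, 0.84 and 3.29 FPKM, also with overlap. In end stage replicate 2, the highest in Pfkm, oligodendrocyte markers summed to 3116 FPKM, against 50.8 to 101 in the rest of that group. In MG the fall of Pfkm was -0.23 with the marker terms and not called. Median-ratio scaling moved the median of all genes by 0.39 and made the split 6 higher and 1 lower. Hk1 and Eno1 were added, and Ldha (-0.64, adjusted p = 0.0924) and Egln3 were lost. Egln3 lost its call under 17 of 22 alternatives, among them leaving out any 1 of 11 of the 15 libraries included. Ddit4 lost it without any 1 of 5 libraries (MG pre-symptomatic 2, MG end stage 1 and 3, MP pre-symptomatic 3, MP end stage 2). Egln1 lost it without MG pre-symptomatic replicate 4 or MG end stage replicate 1, and with library quality weights, which did not converge in this fit (1.79, adjusted p = 0.19). Without MG end stage replicate 1, 4 members and 11.6% of all genes were called.

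Marrow genotype gave no called member in grafted mice. With limma 0% of 11143 genes in MG and 0% of 10299 in MP were called in each of the 4 comparisons of each cell type. All 32 members were tested in MG, and 30 in MP, where Hk2 and Eno2 were below the filter. In MG at early symptoms 7 members and 11% of all genes had an unadjusted p under 0.05 between WT and G93A marrow. Aldoc led, at 230.4, 1347 and 6513 FPKM with WT marrow and 109, 75.1 and 385 FPKM with G93A marrow (3.10, SE 1.01, adjusted p = 0.401). Pfkm was at 13.1, 80.2 and 366 and 8.66, 7.64 and 21.5 FPKM (2.60, SE 0.88, adjusted p = 0.401). WT marrow replicate 3 stood apart: its oligodendrocyte marker sum was 28029 FPKM, and it was the highest in both genes. Without WT marrow replicate 1, 8 members and 11.1% of all genes were called. At end stage no member had an unadjusted p under 0.05, and Egln3 (0.45, SE 0.34, adjusted p = 1.0) and Hif1a (0.47, SE 0.37, adjusted p = 1.0) had the smallest. Between early symptoms and end stage, 3 members with G93A marrow and 5 with WT marrow had an unadjusted p under 0.05, as did 0.879% and 9.12% of all genes. With G93A marrow Ddit4 was 0.6, 0.91 and 0.28 FPKM and then 3.95, 1.35 and 8.06 FPKM (1.58, SE 0.69, adjusted p = 1.0), and Ankrd37 2.03, 2.24 and 3.12 and 1.31, 1.35 and 0.57 FPKM (-0.75, SE 0.33, adjusted p = 1.0), with no overlap in either. With WT marrow Vegfa was 1.12, 3.71 and 7.48 FPKM and then 0.33, 0.47 and 1.43 FPKM (-1.39, SE 0.47, adjusted p = 0.541), with overlap, and Egln3 4.52, 2.95 and 2.8 and 6.59, 11.4 and 4.65 FPKM (0.89, SE 0.34, adjusted p = 0.541), without. Without the same early replicate 1, 5 members and 8.05% of all genes were called.

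In grafted MP at early symptoms 0 members had an unadjusted p under 0.05 between marrows. Ankrd37 (1.40, SE 0.76, adjusted p = 1.0) and Hif1a (-0.98, SE 0.55, adjusted p = 1.0) had the smallest by limma. At end stage 2 had one, as did 14.6% of all genes. Slc16a3 was 147, 106.85 and 77.4 FPKM with G93A marrow and 34.04, 81.04 and 21.1 FPKM with WT marrow (-1.44, SE 0.51, adjusted p = 0.257). Gpi1 was 858, 727 and 947 and 361, 459 and 309.6 FPKM (-1.17, SE 0.48, adjusted p = 0.308). Gpi1 did not overlap and Slc16a3 did. Macrophage marker sums did not overlap between these groups either, at 2663 to 4975 FPKM with G93A marrow and 6042 to 8921 with WT marrow. Red cell sums did not overlap, while neutrophil and monocyte sums did. The part of cell composition was not tested. Between the stages, 1 member had an unadjusted p under 0.05 with G93A marrow and 1 with WT marrow, against 3.64% and 8.12% of all genes. The smallest p were those of Gpi1 (1.27, SE 0.48, adjusted p = 0.955) and Slc2a1 (0.64, SE 0.49, adjusted p = 0.955) with G93A marrow and of Egln3 (-2.10, SE 0.72, adjusted p = 0.559) and Slc2a1 (1.19, SE 0.54, adjusted p = 0.614) with WT marrow. The median SE of a member's change was 0.37 for grafted MG, 0.54 to 0.61 for grafted MP, against 0.32 (MG) and 0.36 (MP) for end stage against pre-symptomatic.

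**Figure D5:**
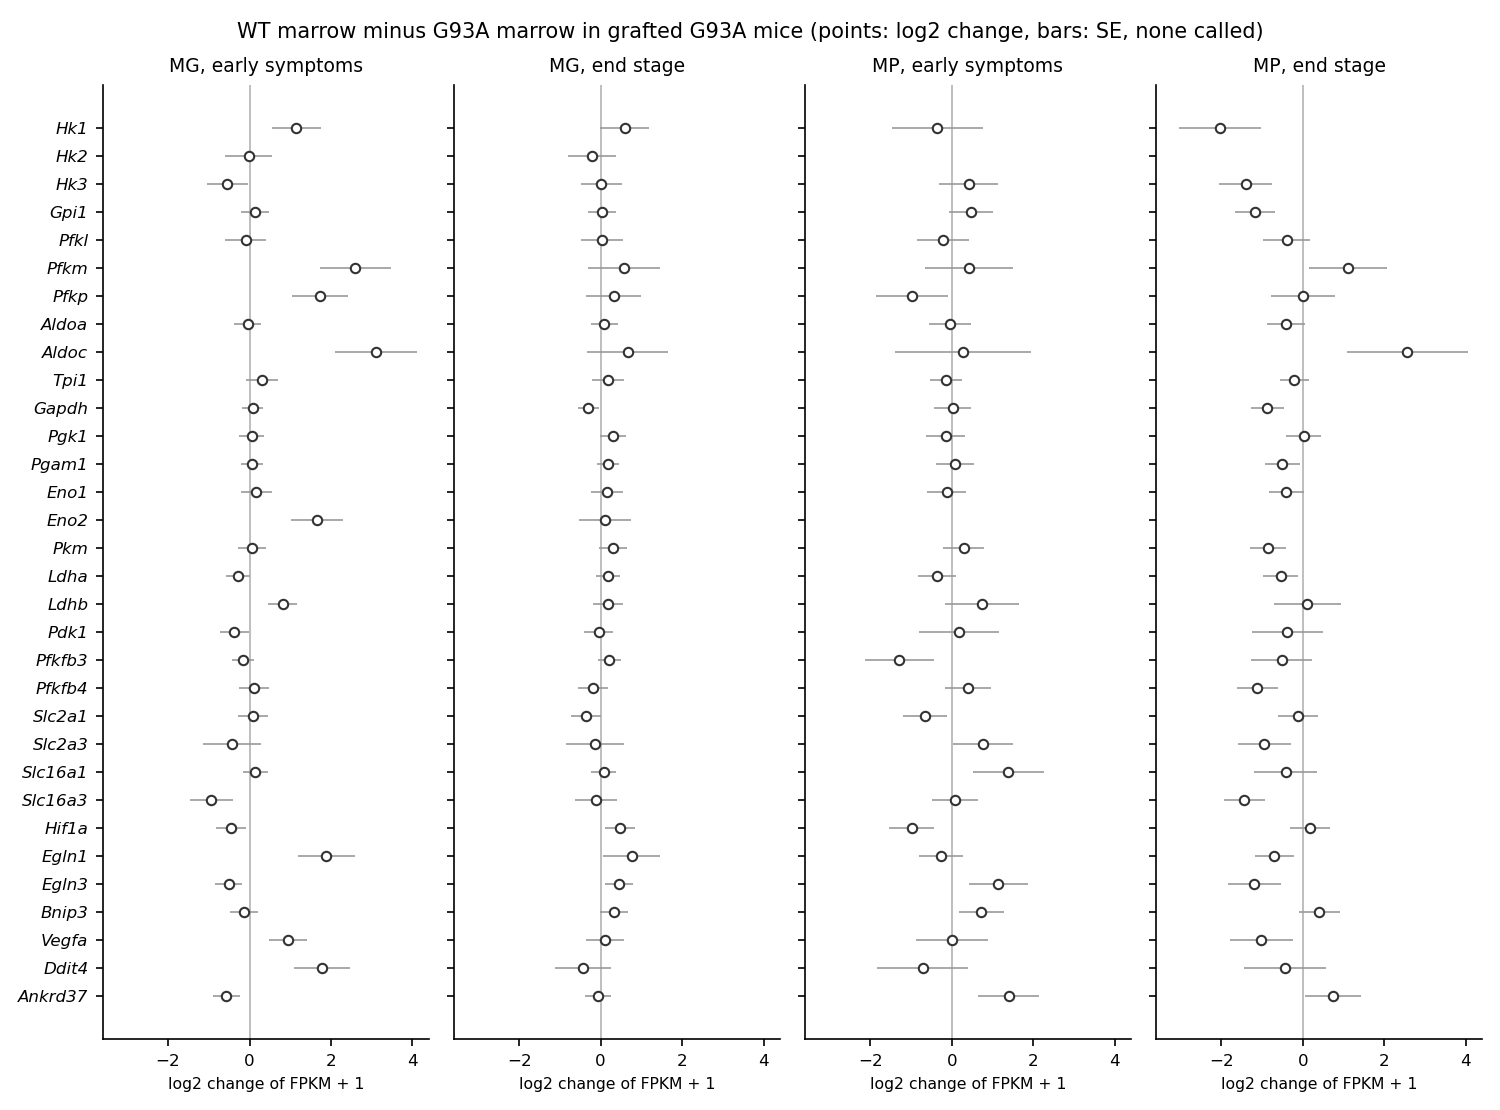
Difference in mean log2(FPKM + 1) between WT and G93A marrow for the members in grafted G93A mice, with its SE, for MG and MP at early symptoms and end stage (3 against 3 libraries, 2 against 3 for MP at early symptoms). No point was called, and Aldoc and Pfkm lie farthest to the right in MG at early symptoms.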

How the data were processed

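The authors deposited FPKM tables, one for non-grafted and one for grafted mice, with decimal commas, per the file headers and values. The mm10 build, DESeq2 under R 3.2.5, SAMtools, Picard and FastQC are listed per the submitters' processing notes; aligner, counting rule, strand setting and read depth were not given in the sources used here, so counting error could not be set. Each library is a separate mouse unless stated as pooled. The members, lists and tests were chosen with earlier results of these data known.

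Values were transformed to log2(FPKM + 1) and fitted with limma 3.58.1 (R 4.3.3; trend and robust off) on group means, within non-grafted MG, non-grafted MP, both together for MP against MG, and each grafted cell type. Genes averaging at least 1 FPKM over a fit were tested, with Benjamini-Hochberg adjustment at 0.05. The fits were first run with limma's variance trend on, against the chosen setting, and were corrected after those results were seen; that fit is kept as an added alternative. The code was tested on simulated data. Values per library were given for called members with the 4 largest rises and 4 largest falls that reached 5 FPKM, or, with none called, the 2 with the smallest p, and for up to 4 called genes of each pathway list. Marker lists were summed FPKM. For Schwann cells, monocytes and endothelium these sums were 9.2 to 80.6, 4.09 to 5950 and 7.97 to 137 in non-grafted MG, and 3.93 to 808, 4033 to 13309 and 0.01 to 28.1 in MP. In MG, red cell sums were 0.95 to 35433 and microglia sums 650 to 18167, and in MP microglia sums were 103 to 1329. Isozyme shares and motif counts were computed with Python 3.11.15 and pandas 2.3.3. Alternatives changed the pseudocount (0.1), the filter, the scaling (median ratios), library weights, the replicate block, marker terms, the groups fitted, the S100a8-high libraries and B6 for WT, and left out each library in turn.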

Additional observations from a re-analysis of the deposited data

Results flagged for a closer look

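Of 352 sets of 4 or 5 libraries (1 member in 1 group), 35 had a library far from the others by Dixon's criterion, which chance gives in about 1 of 20 sets. Values are FPKM, with the range of the other libraries of the group in brackets, and no cause was tested. In MG libraries high in S100a8, Hk3 was 165.75 (4.81 to 49.45), Gpi1 291.06 (41.59 to 100.88) and Slc2a3 76.03 (1.22 to 3.76) in onset replicate 5. In end stage replicate 4 of the same kind Gpi1 was 235.54 (69.12 to 81.29), Slc2a3 41.47 (2.14 to 3.05), Pfkfb4 21.6 (9.52 to 11.47) and Ddit4 7.8 (1.04 to 2.06). WT replicate 3 of the age of end stage was low in S100a8, and its oligodendrocyte marker sum was 23435 (6699 to 9694). It was high in Pfkp at 113.22 (28.93 to 38.51), Gapdh at 139.5 (101.91 to 103.12), Pgk1 at 95.26 (58.9 to 62.87), Pgam1 at 203.2 (114.35 to 119.68) and Eno1 at 577.22 (392.49 to 413.73). Egln3 was 3.59 in WT replicate 1 of that age (2.18 to 2.3).

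Other MG libraries stood apart in single members. Early symptomatic replicate 2 had Eno1 at 290.02 (348.94 to 359.21) and Ldha at 323.77 (226.73 to 236.96). Its oligodendrocyte marker sum was 1824 (10704 to 13409). In WT of the age of onset, replicate 4 had Eno1 at 634.25 (508.19 to 525.91) and Ldhb at 1084.77 (777.02 to 803.72), and replicate 2 had Ldha at 131.72 (153.06 to 155.97). Pre-symptomatic replicate 4 had Egln1 at 44.16 (19.26 to 21.37) and replicate 2 Ddit4 at 13.1 (7.88 to 8.46). Pfkfb4 was 4.62 in B6 replicate 2 of the age of onset (7.0 to 7.48) and 13.8 in B6 replicate 4 of the age of end stage (5.99 to 6.58).

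Among MP, early symptomatic replicate 1 had Hk2 at 7.73 (0 to 0.94), replicate 2 Slc16a1 at 0.94 (7.43 to 8.73), and replicate 4 Pfkm at 2.43 (0 to 0.06) and Eno2 at 1.91 (others listed at 0). End stage replicate 2 had Aldoc at 516.82 (0.02 to 2.94), Ldhb at 124.81 (12.25 to 28.61) and Eno2 at 2.64 (others listed at 0). In end stage replicate 4 Aldoa was 280.24 (430.98 to 461.27) and Pfkfb4 26.37 (60.63 to 63.67). Of the libraries described as WT, replicate 1 had Aldoc at 212.85 (0 to 6.67) and Eno2 at 3.21 (0 to 0.06), replicate 2 Pfkfb4 at 95.76 (58.13 to 61.99), and replicate 4 Hk3 at 162.81 (208.08 to 210.78).

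For 7 members the late change from the pre-symptomatic level differed between the cell types by limma, as MP minus MG on the log2 scale: Pfkm 4.34, Vegfa 2.62, Ddit4 2.42, Egln1 1.97, Ldha -1.09, Egln3 -2.21 and Slc16a3 -2.85. Pfkm in end stage MP was highest in replicate 2 (25.01 FPKM), which also had the highest oligodendrocyte marker sum of that group.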

How the results depend on the processing

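Over the results with a test and their alternatives, 1207 values kept their direction and side of the threshold, 160 crossed it and 2 reversed; the cause of each shift was not tested. Counts below and in the next paragraph are members called. The share of all genes called is not set beside them here, so they do not show a trait of the members. The marker terms gave 11 for MG end stage and 0 for onset against pre-symptomatic (Aldoc 0.15 and Pfkm 0.21, reversed), and 1 for the change from onset to end stage in G93A minus WT. Library quality weights gave 21 for early symptoms and 24 for onset against pre-symptomatic, 23 and 24 for end stage and onset against WT, 24 and 11 for WT against B6 at the ages of end stage and onset, 22 for WT between ages, 19 for G93A minus WT, and, in grafted MG, where the weights did not converge (nor in the joint fit of MP and MG), 14 for marrow at early symptoms and 5 for end stage against early with WT marrow. Onset against pre-symptomatic had 0 with no filter or with only the groups compared, and 1 without the S100a8-high libraries. Against WT at end stage that exclusion gave 8 and B6 in place of WT 18, and at onset B6 gave 19. A variance trend in limma, run first by mistake, gave 12 in place of 13 at early symptoms and the same count in the other 23 comparisons. With a replicate block in the fit, 21, 15 and 0 members were called at end stage, early symptoms and onset against pre-symptomatic; the numbers do not pair mice (median correlation of same-numbered MG libraries -0.028), so these share only a number.

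Leaving out 1 library at a time gave 15 to 20 (end stage against pre-symptomatic), 5 to 14 (early symptoms), 0 to 18 (onset), 3 to 7 (end stage against WT), 0 to 18 (onset against WT), 0 to 5 (WT between ages), 18 to 22 and 14 to 19 (MP against MG before symptoms and at end stage), 4 to 9 (difference of their changes), 0 to 8 (marrow in grafted MG at early symptoms) and 0 to 5 (grafted MG end stage against early with WT marrow), with 0 in the other 13 comparisons. Depth is unknown, so no limit from counting could be set for members listed at 0 or near it.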
